A study of Mus musculus with 12 samples.

Results

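Immunoglobulin and B cell receptor transcripts were followed in macrophages sorted from regenerating mouse muscle. The set was the 6 genes Ighm, Ighd, Igkc, Cd79a, Cd79b and Ms4a1, chosen by symbol and matched to the Ensembl gene identifiers of a count table with 55414 genes. The identifiers were ENSMUSG00000076617 for Ighm, ENSMUSG00000104213 for Ighd, ENSMUSG00000076609 for Igkc, ENSMUSG00000003379 for Cd79a, ENSMUSG00000040592 for Cd79b and ENSMUSG00000024673 for Ms4a1. All 6 genes were found, and 4 of them (Ighm, Ighd, Cd79b and Ms4a1) passed the filter on low counts and were tested. Igkc and Cd79a failed that filter and are given by their counts.

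The animals were C57BL6J wild type males, 8 to 12 weeks old, and the sources name no transgene or drug. Every animal had the femoral artery ligated, which starves the calf muscle of blood, and no uninjured muscle was part of these 12 libraries. The groups differed in the day of harvest, counted as days post injury (dpi). Harvests fell on day 1, day 2, day 4 and day 7, with 3 libraries each. Macrophages of the ischemic calf were sorted as CD45+CD11b+F4/80+CD64+ cells. The CD45 stain of the digested muscle does not set infiltrated leukocytes apart from those still in its vessels. Neither the labels nor the methods tell how many mice gave a library, so p-values measure the spread between libraries, which may be technical.

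A B cell receptor is an immunoglobulin of paired heavy and light chains, held on the cell surface by signalling partners. Ighm and Ighd code the constant regions of the heavy chains of IgM and IgD, and Igkc codes the constant region of the kappa light chain. A complete chain needs a variable region, which developing lymphocytes assemble from V, D and J segments. Cd79a and Cd79b code the pair of receptor-bound chains that carry the signal inward, each through an immunoreceptor tyrosine-based activation motif (ITAM). Ms4a1 codes CD20, a surface protein of mature B cells. B cells and the plasma cells they give rise to are the known source of antibodies, whereas macrophages bind antibodies through Fc receptors.

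The coding stretches of the 2 ITAMs are shown because the counts of these paired chains were far apart. The sequences are from GENCODE M21 on GRCm38, run 5′ to 3′ on the coding strand, and have the codons of the 2 conserved tyrosines in capitals. That of Cd79a spans chr7:24901296-24901469 on the plus strand in exons 4 and 5, and that of Cd79b spans chr11:106311867-106312012 on the minus strand in exons 5 and 6.
Cd79a: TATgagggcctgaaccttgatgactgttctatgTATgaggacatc
Cd79b: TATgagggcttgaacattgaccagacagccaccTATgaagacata
Both stretches are 45 bases long, with 10 codons between the tyrosines, and share 31 of 45 bases.

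Counts summed to between 19528316 and 33599472 per library. A single gene, ENSMUSG00000119584, which has no symbol in the annotation used here, took 14.8% to 55.7% of each library, the lowest shares being those at 7 dpi. Levels are therefore given as CPM, the count per 1e6 counts of library sizes scaled by the trimmed mean of M values (TMM). All 10 macrophage markers listed were detected at every time point, and their summed level was 7872 to 9059 CPM at 1 dpi and 12315 to 17662 CPM at 7 dpi. Itgam and Fcgr1, which code the sorting markers CD11b and CD64, fell from 1 to 7 dpi, with a log2FC of -2.33 and -1.63 (edgeR adjusted p = 1.71e-07 and 1.70e-05). Adgre1, which codes F4/80, rose with a log2FC of 1.23 (edgeR adjusted p = 0.000119).

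Ighm was the main immunoglobulin transcript of these libraries, and it was upregulated between 2 and 4 dpi. At 1 dpi the 3 libraries held 46, 362 and 228 counts, or 3.61, 14.9 and 10.5 CPM. At 2 dpi they held 386, 350 and 338 counts, or 14.5, 17.4 and 12.1 CPM. The 2 early time points overlapped, replicate 1 of 1 dpi being the lowest of all 12 libraries. At 4 dpi the counts were 2116, 4357 and 3134, or 64.0, 193 and 138 CPM. At 7 dpi they were 5038, 5375 and 4172, or 136, 166 and 118 CPM. Every library of 4 and 7 dpi lay above every library of 1 and 2 dpi, and the 2 late time points overlapped each other. The mitochondrial share of counts, taken without the gene of highest count, also differed among these libraries, at 8.51 to 10.2% on day 1 and 4.77 to 5.36% on day 2. It was 6.26, 12.5 and 11.4% on day 4, where replicate 1 was lowest in both this share and Ighm. Day 7 had 6.62, 18.9 and 9.47%, and there replicate 2 was highest in both. The order did not hold throughout. On day 7 replicate 1 had the lowest share but replicate 3 the lowest Ighm, and on day 1 replicate 2 had the lowest share and the highest Ighm. The part of this share in the Ighm values was not tested.

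As means, Ighm stood at 9.66 ± 5.67 CPM (SD, n = 3) on day 1 and 14.7 ± 2.66 on day 2, against 132 ± 64.9 on day 4 and 140 ± 24.1 on day 7. The change from 2 to 4 dpi was 8.98-fold (log2FC 3.17, SE 0.41), with an adjusted p of 8.07e-05 in edgeR's quasi-likelihood test. From 1 to 7 dpi the fold was 14.2 (log2FC 3.83, SE 0.43, edgeR adjusted p = 3.61e-06). Neither the step from 1 to 2 dpi (log2FC 0.58, SE 0.40, edgeR adjusted p = 0.378) nor that from 4 to 7 dpi (log2FC 0.09, SE 0.38, edgeR adjusted p = 0.887) passed the test. The last of these steps had a log2FC of -0.26 without replicate 1 of 4 dpi and -0.04 without replicate 2 of 7 dpi, so its sign rested on single libraries.

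Relative to gene length, Ighm moved up among the expressed genes. Its RPKM, the CPM per kilobase of exon (1886 exonic bases), averaged 5.12, 7.78, 69.8 and 74.1 at 1, 2, 4 and 7 dpi. Among 14275 tested genes with a known length, these means stood at percentiles 72.4, 79.3, 97.6 and 98.4. In bulk samples such as these, a change in the number of cells that hold a transcript and a change in the transcript per cell cannot be told apart.

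A DEG was a gene with an adjusted p (FDR) under 0.05 and an absolute log2FC above 1. Of the 4 tested genes, 0 were DEGs from 1 to 2 dpi, where 5.09% of the 14310 tested genes were DEGs on the way up and 3.97% on the way down. From 2 to 4 dpi the only DEG among them was Ighm, which was upregulated, against 8.02% of all genes upregulated and 3.88% downregulated. From 4 to 7 dpi 0 of 4 were DEGs, against 7.44% up and 5.20% down. From 1 to 7 dpi Ighm, Cd79b and Ighd were upregulated, 3 of 4, against 19.7% of all genes up and 14.0% down. The median log2FC of all tested genes in that comparison was 0.16. Ighd had more than 6 counts in only 4 libraries, the 3 of 7 dpi among them. It thus passed the filter on low counts through the group where it was high, and its call is not independent of that filter. A test for any difference among the 4 time points passed for the same 3 genes and for 61.5% of all genes. For Ighd this call was marginal (edgeR adjusted p = 0.0385) and was lost in 8 of the 12 fits that left out 1 library (edgeR adjusted p up to 0.113), namely without any library of 1 or 7 dpi, replicate 1 of 2 dpi or replicate 3 of 4 dpi. The comparisons share libraries and are not independent of each other. In the 2 steps with no call, 0 of the 4 genes passed an unadjusted p of 0.05, and DESeq2 and limma-voom called 0 of them as well. In limma-voom Cd79b from 4 to 7 dpi passed the FDR (adjusted p = 0.0426) but not the fold threshold (log2FC 0.74). In edgeR without the filter on low counts, the unadjusted p was 0.00982 for Ighm, 0.0379 for Ighd and 0.0306 for Igkc from 1 to 2 dpi, and 0.0451 for Cd79b and 0.0494 for Igkc from 4 to 7 dpi, and 0 of these were called after adjustment.

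**Figure D1:**
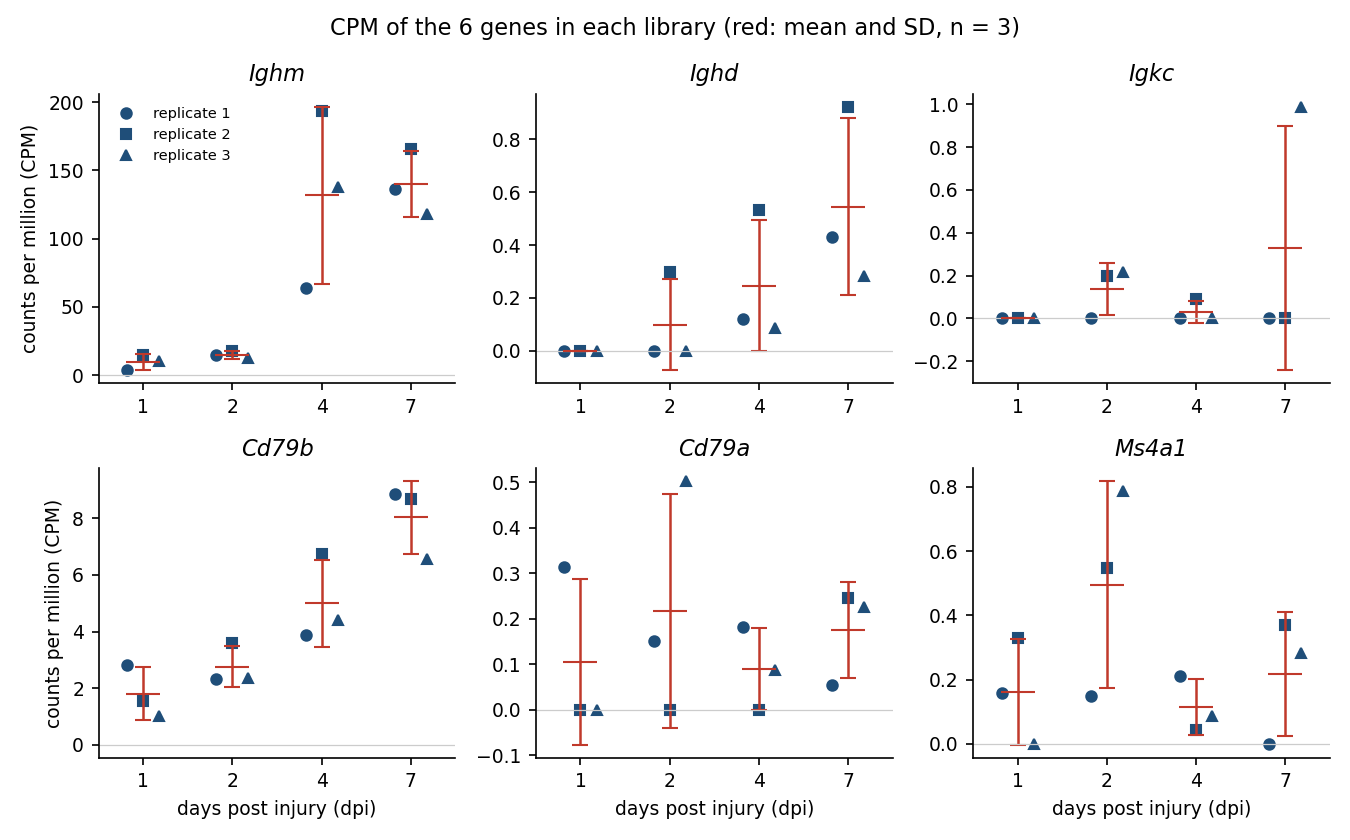
CPM of the 6 genes in each of the 12 libraries (y axis, linear, a separate scale for each gene) by days post injury (x axis). Symbols are the 3 libraries of a time point, and red marks are the mean and SD, whose bars reach below 0 where 1 library of a group holds most counts. Ighm lies between 3.61 and 17.4 CPM at 1 and 2 dpi and between 64.0 and 193 CPM at 4 and 7 dpi, while Ighd, Igkc, Cd79a and Ms4a1 stay under 1 CPM in every library.

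Ighd, which lies next to Ighm on chromosome 12 and is normally co-transcribed with it, had few counts. It was listed at 0 in the 3 libraries of 1 dpi, where 3 counts, the limit that a count of 0 allows, would be 0.236, 0.123 and 0.138 CPM. On day 2 it had 0, 6 and 0 counts, on day 4 there were 4, 12 and 2, and day 7 gave 16, 30 and 10. The 7 dpi libraries, at 0.432, 0.924 and 0.283 CPM, all lay above those of 1 dpi and overlapped those of 2 and 4 dpi. The mean at 7 dpi was 3.30-fold this floor of 3 counts per library, averaged over 1 dpi. That figure leaves out the error of the 7 dpi mean and is no lower bound. The edgeR adjusted p of the comparison of 1 with 7 dpi was 0.0130. The 3 steps between neighbouring time points did not pass (edgeR adjusted p = 0.262, 0.502 and 0.486).

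The balance between the 2 heavy chain constant genes stayed far on the side of Ighm. Of all counts on the pair, Ighd took 0 of 636 at 1 dpi (exact Clopper-Pearson 95% interval 0 to 0.578%). Its share was 0.556% on day 2 (0.204 to 1.21%), 0.187% on day 4 (0.111 to 0.295%) and 0.382% on day 7 (0.289 to 0.496%). The 6 Ighd counts at 2 dpi came from replicate 2 alone. These shares are of counts not corrected for length, and the intervals cover counting error only, with each count taken as independent.

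Igkc was nearly absent, in contrast with Ighm. Its counts were 0, 0 and 0 in the libraries of 1 dpi and 0, 4 and 6 in those of 2 dpi. They were 0, 2 and 0 on day 4 and 0, 0 and 35 on day 7. Of the 47 counts in all, 35 thus came from replicate 3 of 7 dpi, at 0.989 CPM. The other two libraries of that time point held 5038 and 5375 counts of Ighm and 0 of Igkc. Per length, the mean RPKM at 7 dpi was 0.62 ± 1.07 (SD, n = 3) for Igkc and 74.1 for Ighm.

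The remaining immunoglobulin constant genes were near 0 as well. Of the 10 listed, which cover the IgG, IgA and IgE heavy chains and the lambda light chains, Ighg1 had 2 counts in 1 library of 2 dpi and Iglc2 had 6 counts in 1 library of 7 dpi. Ighg2b, Ighg2c, Ighg3, Igha, Ighe, Iglc1, Iglc3 and Iglc4 had 0 counts in all 12 libraries. Jchain, the joining chain of secreted IgM and IgA, had 6 counts in 1 library of 4 dpi and 8 in 1 library of 7 dpi.

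Variable regions were hardly represented. The 348 V segments of the heavy, kappa and lambda loci held 51 counts in all, on 17 segments, beside 25902 counts of Ighm. Day 1 had 13 of these counts, day 2 had 16 and day 7 had 22, while day 4, by which Ighm had risen, had 0. Of the 22 counts at 7 dpi, 14 were in replicate 3, the library with the 35 Igkc counts. Together with D and J segments, 24 of 382 segments had a count, 89 counts in all, and the 3 with most were Ighj1 (29), Ighv1-58 (6) and Ighv1-64 (6). A read that spans a V, D or J segment and the constant region overlaps 2 annotated genes, and the counting program by default leaves out such reads and reads with several alignments, so these sums may be too low. The options used were not given in the sources used here.

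The 4 heavy chain J segments, which lie upstream of Ighm on chromosome 12, are shown because their counts were uneven. The capitals mark the tryptophan codon that the segments share, and the sequences are from GENCODE M21 on GRCm38, 5′ to 3′ on the coding, minus strand, from chr12:113429781-113429833 for Ighj1, chr12:113429468-113429515 for Ighj2, chr12:113429085-113429132 for Ighj3 and chr12:113428514-113428567 for Ighj4.
Ighj1: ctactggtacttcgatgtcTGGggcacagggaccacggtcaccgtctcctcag
Ighj2: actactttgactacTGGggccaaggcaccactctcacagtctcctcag
Ighj3: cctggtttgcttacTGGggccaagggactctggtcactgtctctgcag
Ighj4: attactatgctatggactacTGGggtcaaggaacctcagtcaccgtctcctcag
Ighj1, the segment farthest upstream, took 29 of the 33 heavy J counts, Ighj3 and Ighj4 2 each, and Ighj2 0. None of the 6 libraries of 1 and 2 dpi had a count on Ighj1. Its counts were 5, 1 and 2 at 4 dpi and 1, 12 and 8 at 7 dpi, the time points at which Ighm was high.

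**Figure D2:**
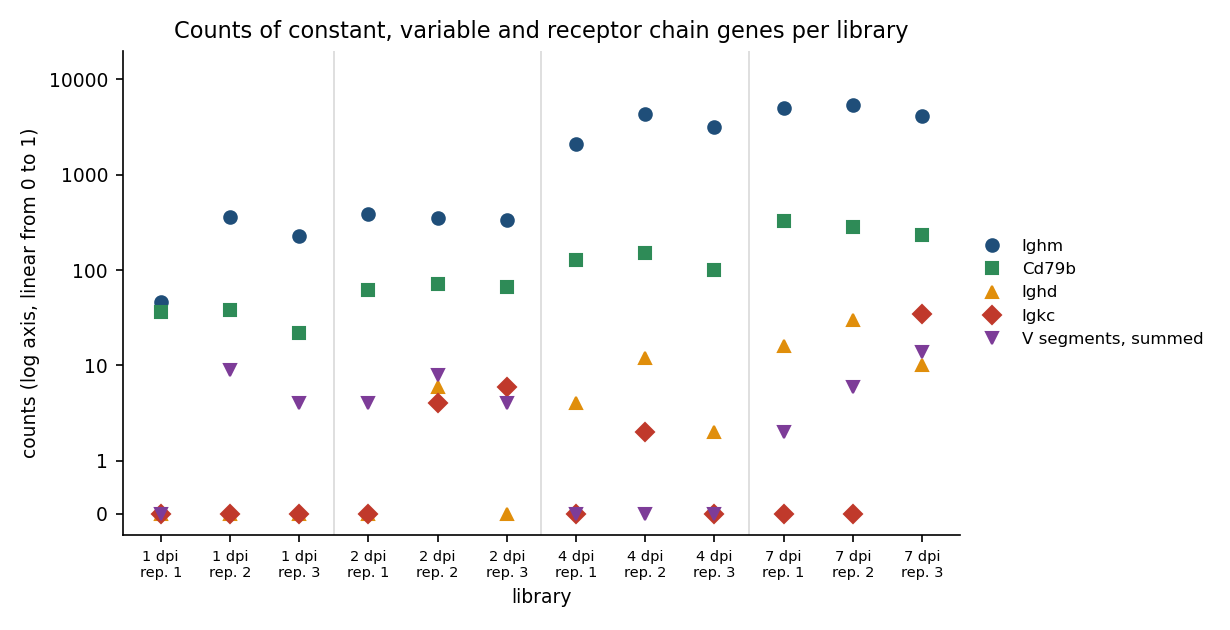
Counts per library (y axis, logarithmic above 1 and linear from 0 to 1) of Ighm, Cd79b, Ighd, Igkc and all V segments summed, for the 12 libraries on the x axis ordered by time point. Ighm is the top symbol in every library, from 46 to 5375 counts, while Igkc is at 0 in 8 libraries and exceeds 6 counts in 1.

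Cd79b was upregulated in the comparison of the first with the last time point. The libraries held 36, 38 and 22 counts at 1 dpi (2.83, 1.56 and 1.02 CPM) and 62, 72 and 66 at 2 dpi (2.33, 3.58 and 2.37 CPM). They held 128, 152 and 100 at 4 dpi (3.87, 6.75 and 4.39 CPM) and 328, 282 and 232 at 7 dpi (8.85, 8.69 and 6.56 CPM). The 4 dpi libraries all lay above those of 2 dpi, whereas the libraries of 1 and 2 dpi overlapped, as did those of 4 and 7 dpi.

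The mean of Cd79b was 1.80 ± 0.931 CPM (SD, n = 3) on day 1, 2.76 ± 0.714 on day 2, 5.00 ± 1.53 on day 4 and 8.03 ± 1.28 on day 7. From 1 to 7 dpi this was 4.59-fold (log2FC 2.20, SE 0.37, edgeR adjusted p = 0.000137). The 3 single steps had a log2FC of 0.65, 0.86 and 0.69 (SE 0.37, 0.35 and 0.34) and did not pass (edgeR adjusted p = 0.274, 0.0927 and 0.141). Its RPKM averaged 1.26, 1.93, 3.50 and 5.61 at the 4 time points, at percentiles 46.0, 53.3, 65.1 and 76.9 of the genes with a length.

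Cd79a, the partner of Cd79b, was not detected at a comparable level. It had 4, 0 and 0 counts on day 1, 4, 0 and 14 on day 2, 6, 0 and 2 on day 4, and 2, 8 and 8 on day 7. The groups overlapped throughout, and no library exceeded 0.502 CPM. Of the counts on the pair, Cd79a took 4.00% at 1 dpi (exact Clopper-Pearson 95% interval 1.10 to 9.93%) and 8.26% at 2 dpi (4.97 to 12.7%). At 4 dpi it took 2.06% (0.894 to 4.02%) and at 7 dpi 2.09% (1.25 to 3.29%). Of the 18 Cd79a counts at 2 dpi, 14 came from replicate 3. The intervals cover counting error only, with each count taken as independent. Per length the difference held, with a mean RPKM at 7 dpi of 0.12 for Cd79a and 5.61 for Cd79b.

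The balance of Ighm and Cd79b counts differed between early and late libraries. The ratio of Ighm to Cd79b counts was 1.28, 9.53 and 10.4 in the libraries of 1 dpi and 6.23, 4.86 and 5.12 in those of 2 dpi. It was 16.5, 28.7 and 31.3 at 4 dpi and 15.4, 19.1 and 18.0 at 7 dpi. All 6 late libraries lay above all 6 early ones. No test of this ratio was made.

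Ms4a1 stayed at the limit of detection, with no change that passed. Counts were 2, 8 and 0 on day 1, 4, 11 and 22 on day 2, 7, 1 and 2 on day 4, and 0, 12 and 10 on day 7. The highest library, replicate 3 of 2 dpi, reached 0.788 CPM, and all time points overlapped. From 2 to 4 dpi the log2FC was -2.01 (SE 1.22, edgeR adjusted p = 0.269), and from 1 to 7 dpi it was 0.38 (SE 1.23, edgeR adjusted p = 0.820). With SEs this wide, a change of 2-fold in either direction was not detectable at this depth.

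**Figure D3:**
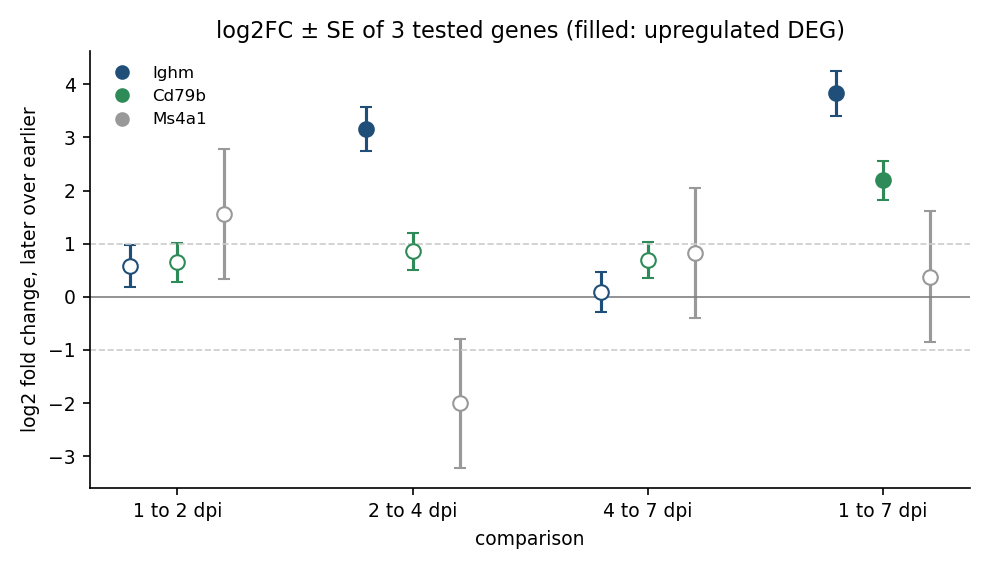
log2FC with its SE (y axis) of Ighm, Cd79b and Ms4a1 in the 4 comparisons (x axis), from edgeR. Filled points are upregulated DEGs and dashed lines mark a log2FC of 1 and of -1. Ighm is filled in the second (3.17) and the last comparison (3.83), Cd79b in the last only (2.20), and the bars of Ms4a1 are the widest. Ighd is left out because a fitted fold against a group at 0 is no measured size.

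Other genes that mark B cells included some that rose, 1 that fell and some near 0. Of 19 further surface and marker genes, 9 were tested. From 1 to 7 dpi 5 were upregulated and 1 downregulated, against 19.7% of all genes up and 14.0% down. The median log2FC of the 9 was 1.73, against 0.16 for all tested genes. It leaves out the genes that failed the filter on low counts. Among those, Fcrla, Cr2, Fcer2a, Tnfrsf13c and Fcmr had 34, 19, 13, 12 and 10 counts at 7 dpi. Cd72, an inhibitory co-receptor of B cells that myeloid cells also express, rose from 0.667 ± 0.376 to 61.4 ± 19.2 CPM (SD, n = 3; log2FC 6.57, SE 0.45, edgeR adjusted p = 4.04e-08). Cd22, a sialic acid-binding inhibitory receptor, rose from 1.16 ± 0.279 to 33.4 ± 8.19 CPM (log2FC 4.82, SE 0.41, edgeR adjusted p = 3.64e-07). Cd24a, a surface glycoprotein found on many leukocytes, fell from 140 ± 26.1 to 6.05 ± 5.14 CPM (log2FC -4.53, SE 0.43, edgeR adjusted p = 7.51e-07). The other upregulated genes were Bank1, Ralgps2 and H2-Ob. Tnfrsf13b, a receptor for survival factors of B cells, averaged 30.5, 33.4, 38.6 and 27.8 CPM at the 4 time points and was a DEG in no comparison. Blk, a kinase of B cells, had 0 counts in every library.

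The rises of Cd72 and Cd22 were spread over the steps. Cd72 was upregulated in each of them, with a log2FC of 2.13 in the first, 3.02 in the second and 1.41 in the third (edgeR adjusted p = 0.00469, 4.19e-05 and 0.00650). Its call in the first step was lost with limma-voom (adjusted p = 0.0940), where the list had 0 calls. Cd22 was upregulated in the second (log2FC 2.10, edgeR adjusted p = 0.000816) and the third (log2FC 1.49, edgeR adjusted p = 0.00601). Of all tested genes, 5.09% were up and 3.97% down in the first step. The shares were 8.02% and 3.88% in the second and 7.44% and 5.20% in the last. Over the whole list, the first step had 1 upregulated and 0 downregulated genes, the second 2 and 1, and the last 3 and 1. The third gene up in the last step was Bank1, an adaptor of B cell receptor signalling, whose call was lost without replicate 1 or 3 of 4 dpi or replicate 2 of 7 dpi, with a lowest log2FC of 0.63 (edgeR adjusted p up to 0.302).

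Among 12 transcription factors of B cells, 9 were tested. By 7 dpi, 5 stood higher than on day 1 and 0 lower by the DEG criteria (median log2FC 1.23). Of all tested genes 19.7% were up and 14.0% down, with a median of 0.16. Pou2f2, also known as Oct-2, rose from 1.67 ± 0.912 to 59.9 ± 30.5 CPM (SD, n = 3; log2FC 5.09, SE 0.42, edgeR adjusted p = 2.36e-07). Ebf1, an early B lineage factor that stromal cells also express, rose from 1.12 ± 0.418 to 6.30 ± 1.56 CPM (log2FC 2.50, SE 0.40, edgeR adjusted p = 9.49e-05). Mef2c rose from 55.3 ± 15.7 to 135 ± 40.9 CPM (log2FC 1.29, SE 0.26, edgeR adjusted p = 0.000703). Foxo1 and Spib completed the 5. Spib was at 0 at 1 dpi. It thus passed the filter on low counts through later libraries, and its call is not independent of that filter. The call of Foxo1 was lost without replicate 1 of 7 dpi (log2FC 0.89). That of Spib was lost without any 1 of the libraries of 1 dpi or without replicate 2 or 3 of 7 dpi (edgeR adjusted p up to 0.0780). With limma-voom it was lost as well (adjusted p = 0.195). Pax5, which fixes B cell identity, had 2, 8, 0 and 0 counts over the groups and was not tested.

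From 2 to 4 dpi, the step in which Ighm was called, 0 of the 9 factors were DEGs in edgeR, against 8.02% up and 3.88% down among all genes. Ebf1 and Tcf3 had an unadjusted p under 0.05, and Ebf1 was a DEG with DESeq2 (log2FC 1.17, adjusted p = 0.0331) and without replicate 3 of 1 dpi. From 4 to 7 dpi Pou2f2, Ebf1, Foxo1 and Bach2 were upregulated and the other 5 were not DEGs, against 7.44% up and 5.20% down among all genes. The log2FC was 3.28 for Pou2f2 (edgeR adjusted p = 0.000140) and 1.96 for Ebf1 (edgeR adjusted p = 0.00241). From 1 to 2 dpi Pou2f2 was upregulated and Bach2 downregulated, against 5.09% up and 3.97% down among all genes. Both early calls were lost without replicate 3 of 1 dpi or replicate 2 or 3 of 2 dpi, that of Pou2f2 also without replicate 1 of 1 dpi and that of Bach2 without replicate 2 of 1 dpi (edgeR adjusted p up to 0.0938 and 0.144). With limma-voom both early calls were lost too (adjusted p = 0.177 for Pou2f2), and that of Bach2 also with the replicate block. Bach2 lost its late call without replicate 1 of 4 dpi (edgeR adjusted p = 0.0556), and Foxo1 its late call without replicate 1 of 7 dpi (log2FC 0.93).

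All 19 listed genes of the signalling chain below the receptor were tested. Many of them act in macrophages too, below Fc receptors and other ITAM-bearing receptors. From 1 to 7 dpi 6 were upregulated and 1 was downregulated (median log2FC 0.085). That median lay below the 0.16 of all tested genes, of which 19.7% were up and 14.0% down. Blnk, the adaptor that the kinase Syk phosphorylates, rose from 9.42 ± 1.50 to 84.7 ± 12.0 CPM (SD, n = 3; log2FC 3.16, SE 0.24, edgeR adjusted p = 1.25e-07). Nfatc1, a calcium-regulated factor, had a log2FC of 1.44 (SE 0.18, edgeR adjusted p = 9.54e-06). Rasgrp3, an activator of Ras proteins, rose from 1.55 ± 1.07 to 22.1 ± 11.1 CPM (log2FC 3.74, SE 0.56, edgeR adjusted p = 5.60e-05). Prkcb and Vav2 were also upregulated. The downregulated gene was Malt1, a protease of the NF-kappaB branch (log2FC -1.10, edgeR adjusted p = 0.00148), which lost its call without replicate 3 of 1 dpi or replicate 1 of 7 dpi. The sixth, Grb2, lay at the fold threshold (log2FC 1.01) and lost its call without any 1 of 6 libraries, among them all 3 of 4 dpi. Its call was also lost when only the 6 libraries compared were fitted. Syk, Lyn and Btk, the kinases at the head of the chain, were not DEGs, with a log2FC of 0.56, -0.21 and -0.58. Each passed the test for any difference among the time points (edgeR adjusted p = 0.000663, 0.0243 and 0.0274), as did 61.5% of all genes.

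Within the steps, the chain of 19 genes had 2 upregulated and 2 downregulated in the first, 4 and 0 in the second, and 1 and 0 in the third. Among all tested genes, 5.09% were up and 3.97% down in the first step. The second had 8.02% up and 3.88% down, and the third 7.44% and 5.20%. Blnk took its largest step first, from 1 to 2 dpi (log2FC 2.24, SE 0.24, edgeR adjusted p = 2.90e-05). Rasgrp3 rose beside it (log2FC 2.32, edgeR adjusted p = 0.0106), while Malt1 (log2FC -1.35) and Fcgr2b (log2FC -1.16) fell. In the second step Nfatc1, Vav2, Blnk and Fcgr2b rose, and in the third Prkcb (log2FC 1.31, edgeR adjusted p = 0.0114). The number of upregulated genes fell to 1 in the first step with limma-voom, to 2 in the second without replicate 2 of 4 dpi, and to 0 in the last without replicate 1 of 4 dpi or replicate 1 of 7 dpi. In the first step the call of Malt1 was lost without replicate 3 of 1 dpi and that of Fcgr2b without replicate 1 of 1 dpi. In the second, Blnk lost its call with limma-voom and without replicate 2 of 2 or of 4 dpi, and Fcgr2b without replicate 2 of 4 dpi.

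**Figure D4:**
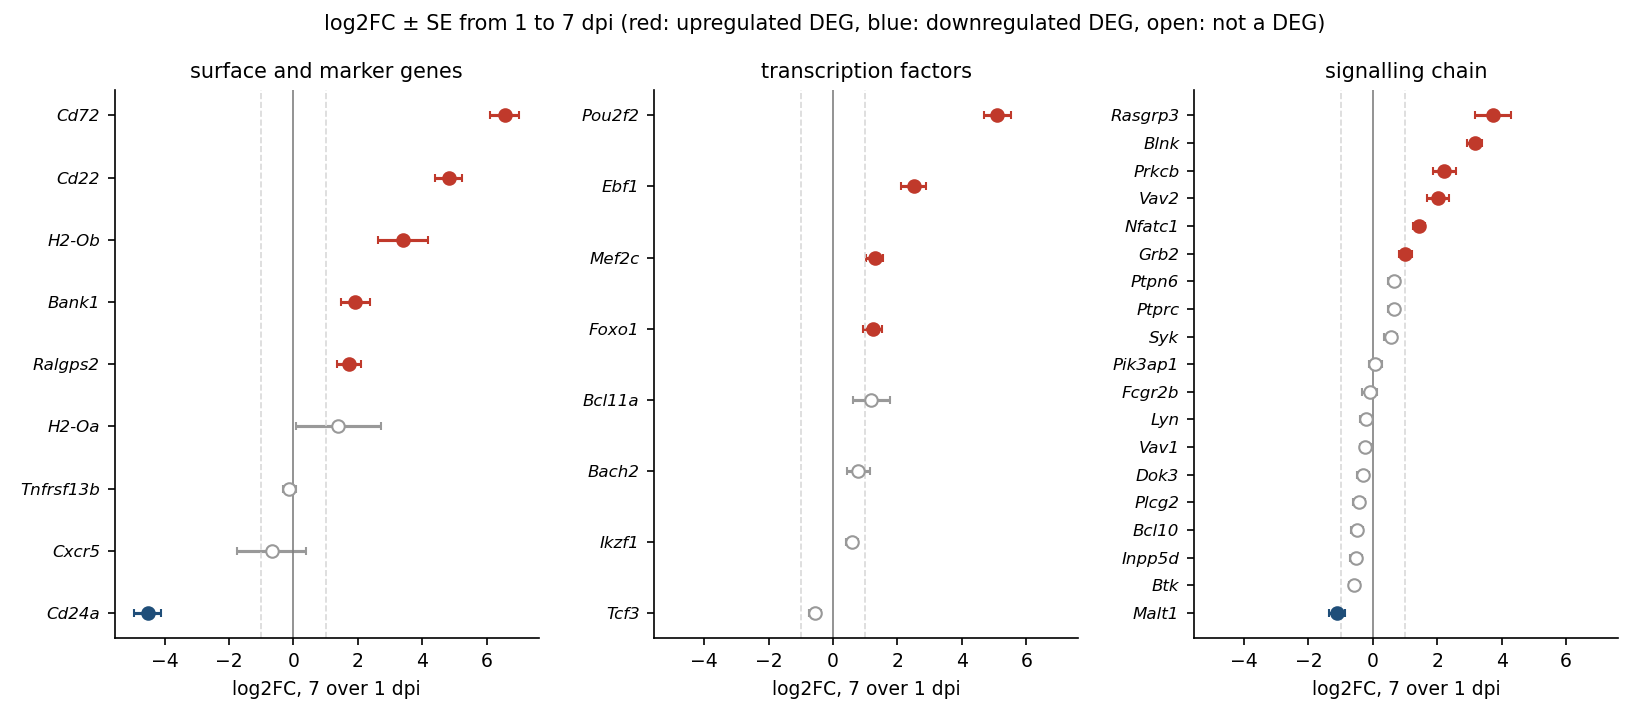
log2FC with its SE from 1 to 7 dpi (x axis, the same for the 3 panels) of the tested genes (y axis) among further B cell surface and marker genes, B cell transcription factors and the signalling chain, without Spib, which was at 0 at 1 dpi. Red points are upregulated DEGs, blue points downregulated DEGs and open points neither. Cd72 (6.57), Pou2f2 (5.09) and Rasgrp3 (3.74) are the top points of the 3 panels, and Cd24a (-4.53) and Malt1 (-1.10) are the blue points.

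Plasma cell genes did not rise together from 1 to 7 dpi. Of 12 listed, 5 were tested, and 2 were downregulated, against 14.0% of all genes down and 19.7% up. Xbp1, a factor of secretory cells, had a log2FC of -1.43 (SE 0.18, edgeR adjusted p = 1.20e-05), and Sdc1, which codes CD138, -2.87 (SE 0.59, edgeR adjusted p = 0.000806). Between day 2 and day 4 Prdm1 and Tent5c rose (log2FC 1.25 and 1.23), and in the last step Tent5c fell by 1.01 on the log2 scale, a call that 13 of 22 alternatives lost. Mzb1, a chaperone of IgM assembly, had 0 counts in all libraries.

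Markers of other cells that a sort could hold moved in the same window, and their part in the results above was not tested. Of 17 T cell markers, 3 were tested and only Cd28 was upregulated from 1 to 7 dpi (log2FC 5.35, SE 0.53, edgeR adjusted p = 1.32e-06), where 19.7% of all genes were. The summed T cell list lay between 0.629 and 1.48 CPM on day 1, 2.80 and 3.79 on day 2, 10.5 and 36.1 on day 4, and 18.8 and 36.7 on day 7. Cd28 made up most of it, with 1623 counts at 4 dpi and 2447 at 7 dpi. The defining T cell genes Cd3d, Cd3e and Cd3g had no more than 12 counts each over any time point, and Cd8b1 had 0 throughout. Of 10 NK cell markers, 2 were tested (Klrb1c and Klrd1) and 0 were DEGs or had an unadjusted p under 0.05 in any comparison, and the summed level of the list was at most 3.00 CPM. Gzma, which had 0, 8, 14 and 54 counts over the groups, failed the filter but was called from 1 to 7 dpi in 12 alternatives (edgeR adjusted p = 0.00406 without the filter), and Ncr1 in 1, without replicate 2 of 7 dpi.

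Some dendritic cell and tissue markers were upregulated from 1 to 7 dpi, where 19.7% of all genes were upregulated and 14.0% downregulated. Of 10 plasmacytoid dendritic cell markers, 7 were tested and 4 were upregulated from 1 to 7 dpi, led by Tcf4, Siglech and Cox6a2. Spib stands in this list too, with the limits of its call given above. Siglech had 2, 2, 38 and 277 counts over the 4 groups, and the sum of the list went from 51.0 to 65.7 CPM at 1 dpi to 101 to 181 CPM at 7 dpi. Of 10 conventional dendritic cell markers, 9 were tested and 5 were upregulated (Batf3, Zbtb46, Flt3, Clec9a and Dpp4, the last 3 of which lost their call when 1 library of 1 or 7 dpi was left out), with sums of 7.80 to 18.2 CPM at 1 dpi and 18.5 to 48.4 at 7 dpi. Of 13 muscle, endothelial, fibroblast and red cell markers, 7 were upregulated, and their sum rose from 47.1 to 73.8 CPM to 429 to 688 CPM, Col1a1, Col1a2 and Acta1 having the smallest adjusted p. Of 11 neutrophil markers, 6 were tested and 4 were downregulated from 1 to 7 dpi, with S100a9, Mmp8 and S100a8 in the lead. Of 10 macrophage markers, 5 were upregulated and 3 downregulated, with Itgam, C1qa and Mertk having the smallest adjusted p, while Csf1r and Cd14 lay at the fold threshold (log2FC 1.01 and -1.04) and lost their calls without single libraries.

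The genes whose course over the 12 libraries was most like that of Ighm were Il16, Myom1 and Asb13. Pearson's correlations of log2 CPM were 0.989, 0.984 and 0.983. Il16, a precursor of a cytokine that attracts CD4+ cells, averaged 1.85, 2.55, 17.3 and 26.1 CPM at the 4 time points. Myom1, which codes a protein of the muscle sarcomere, averaged 0.185, 0.164, 4.73 and 8.63 CPM. For Cd79b the closest were Cnrip1 (0.971), Zfp282 (0.965) and Pld2 (0.960), and for Ighd they were Ick (0.935), Usp49 (0.933) and Adh1 (0.932). For Ms4a1 they were Brms1l (0.872), Nbn (0.867) and Hirip3 (0.865), at counts too low for the likeness to be read as a finding. All these genes share libraries, time points and scaling, and with rank correlations the 3 closest genes shared 0 with those of Ighm and 0 with those of Cd79b.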

How the data were processed

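Poly(A) RNA of the sorted cells was made into full-length cDNA libraries with an oligo-dT, Smart-seq2/3 protocol, and sequenced as pairs of 150-base reads. Per the labels, Trim Galore 0.6.6 was used for trimming, HISAT2 2.2.1 for alignment to the GRCm39 build, and featureCounts of Subread 2.0.1 for the gene table. The deposited unit is the raw count, in 1 table with a column per library, and all 12 columns were used. The annotation release and the counting options are not given in the sources used here. Of counts between 1 and 20, 76.6% to 85.5% per library were even. If the mates of a pair were counted singly, which is not settled here, the number of fragments behind a small count is lower and the floor of 3 counts is larger. In that case the Clopper-Pearson intervals are also too narrow, and a fold against the floor is too high.

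The software was edgeR 4.0.16, DESeq2 1.42.0 and limma 3.58.1 under R 4.3.3. After filterByExpr, 14310 genes remained. TMM factors scaled the libraries, and a single model of all 12 had a term for each day of harvest. The quasi-likelihood F test compared 1 with 2, 2 with 4, 4 with 7 and 1 with 7 dpi, and all time points at once, with Benjamini-Hochberg adjustment over all genes of a comparison. The DEG criteria, an FDR below 0.05 with a log2FC beyond 1 in either direction, were those of the study. The SE was derived from the F statistic. Log2 CPM used a prior count of 2. Symbols and exonic lengths came from GENCODE M21 (GRCm38), joined by Ensembl identifier, and 3333 of 55414 identifiers had no symbol. Sequences and coordinates are of that build. The tests were tried on simulated data.

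The 6 genes and all gene lists were chosen with earlier results of these data known. Named were the 6 genes, the other immunoglobulin constant genes and Jchain, the 3 segments with most counts, and of each list the 3 DEGs with the smallest FDR, or the 2 genes with the highest mean where there was none. For each tested gene of the 6, the 3 genes with the highest Pearson correlation were also named. Genes named beyond this rule, such as the rest of a short count or defining markers near 0, were chosen after their values were seen. 2 genes first listed are not reported here and were left out of the counts of their lists. Replicate numbers in the labels were not used to pair the libraries in the main model, as given with the limits.

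The alternatives were other scaling, filters and tests, the 6 libraries of a comparison alone, the replicate number as a block, halved counts, the largest gene left out, no fold threshold, a prior count of 0.5, rank correlation, and each library left out in turn.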

Additional observations from a re-analysis of the deposited data

How the results depend on the processing

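The calls of Ighm from 2 to 4 and from 1 to 7 dpi and of Cd79b from 1 to 7 dpi were made in all 21 alternatives run for each, with a log2FC of 2.78 to 3.49, 3.52 to 4.34 and 1.97 to 2.70. Ighd was called from 1 to 7 dpi in the 19 alternatives that tested it (edgeR adjusted p up to 0.0425). A filter of CPM above 1 in 3 libraries left out Ighd and Ms4a1. Halved counts, which bear on whether mates were counted singly, left out both genes as well. In each of these settings 2 of the 6 genes were called from 1 to 7 dpi. Over the settings, 0, 1, 0 and 2 to 4 of the 6 genes were called in the 4 comparisons. The fourth was Igkc, tested only without the filter (edgeR adjusted p = 0.0279 from 1 to 7 dpi), where all its 35 late counts lie in 1 library. Leaving out 1 library in turn gave 0, 1, 0 and 3, and 2 to 3 genes with any change over time, the gene lost being Ighd.

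Signs turned for values that passed no test. The log2FC of Ighm from 4 to 7 dpi was -0.26 without replicate 1 of 4 dpi and -0.04 without replicate 2 of 7 dpi, and ranged from -0.26 to 0.45 as libraries were left out. With limma-voom that of Ms4a1 was -0.17 from 4 to 7 dpi and -0.043 in the comparison of day 1 with day 7. In the latter, leaving out libraries gave -0.20 (replicate 2 of 7 dpi) to 1.70, with -0.15 without replicate 3 of 1 dpi. The cause was not tested.

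With no fold threshold, DEGs among all genes numbered 2785 from 2 to 4 dpi and 3656 from 4 to 7 dpi, beside 1703 and 1808 with it. Leaving out 1 library gave 896 to 1409 DEGs in the first step, 1122 to 2325 in the second, 1009 to 2626 in the third and 4456 to 4971 between day 1 and day 7. The count was 1122 without replicate 2 of 4 dpi, and from 4 to 7 dpi it was 1178 without replicate 1 of 4 dpi and 1009 without replicate 2 of 7 dpi. Of the 41 calls in the 3 B cell lists, 25 were made in every alternative and all 41 had the same sign in every alternative.

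Deviations of same-numbered libraries correlated between -0.13 and 0.13 over 18 pairs. Those of differently numbered libraries correlated between -0.22 and 0.27 over 36 pairs. The replicate numbers were therefore not used as pairs, although such correlations cannot show that the libraries were unpaired. With the replicate block, 0, 1, 0 and 3 of the genes were called in the 4 comparisons, 3 had any change, and all genes gave 1256, 1686, 1780 and 4798 DEGs. Counts under about 10 in a library, as for Igkc, Cd79a, Ms4a1 and the V segments, set no order of time points.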
